A study of Ovis aries with 8 samples.

Results

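Gene expression after transfection of an antagomiR against miR-22-3p was examined in 4 of the series' 8 libraries: 2 from ovine satellite cells given antagomiR-22-3p and 2 from cells given a control antagomiR. The libraries were taken by their sample labels, and every gene of the table was included, 20921 in all. The cells were primary skeletal muscle satellite cells of SuffolkxTexel genotype, grown in medium rich in serum and transfected with RNAiMAX lipofectamine when they were not yet confluent. AntagomiR-22-3p was given at 500 nM, RNA was taken on day 4, and neither the sequence nor the concentration of the control antagomiR is stated in the labels. The other 4 libraries, from cells given a miR-127 mimic (100 nM) or a control mimic, entered the model to help estimate the spread between libraries and are quoted where they bear on a gene. The labels number the libraries of each group as experiment 1 and experiment 2 and do not name animals, so p-values reflect only how these libraries spread, and that spread may be technical.

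MicroRNAs are short RNAs that guide the silencing machinery to messages with a matching site, usually in the 3′ untranslated region, and lower their translation and stability. miR-22-3p is abundant in heart and skeletal muscle, increases as myoblasts differentiate, and has been tied to less proliferation and more differentiation of these cells. An antagomiR is a chemically modified antisense RNA that pairs with the mature microRNA and keeps it from its targets, so that messages the microRNA held down can be released. The libraries were made from poly(A)-selected RNA and do not measure mature miR-22-3p, so the block itself cannot be checked in these data. The table names genes by Ensembl sheep identifier alone, and 0 of the 20921 identifiers could be paired with a symbol. Genes are therefore given by identifier, without a function or a known target relation, and the markers of satellite cells or of other cell types could not be looked up.

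The antagomiR-22-3p libraries were the deeper ones. They held 34243423 and 35843926 counts, against 26637300 and 28560101 in the control antagomiR libraries, so depth and treatment cannot be told apart. Levels are given below as CPM, counts per 1000000 after scaling with TMM factors, which correct for a few genes taking a different share of a library. A count of 3, the upper limit that a count of 0 allows if counts are independent, corresponded to 0.102 and 0.101 CPM in the controls. After the antagomiR it corresponded to 0.0841 and 0.0835 CPM, for counting error only. Counts were not single independent reads, as described under the processing, so these limits may be too low. Among the 12804 genes at 2 log2 CPM or more, the median difference between the 2 libraries of a group was 0.14 on the log2 scale in the control and 0.13 after antagomiR-22-3p. Across the groups it was 0.13 for each of the same-numbered comparisons and 0.16 and 0.15 for the others. By this measure the same-numbered libraries of the 2 groups (0.128 and 0.125) lay slightly closer than the 2 libraries of 1 group (0.142 and 0.131). Those with other numbers lay further apart. The labels do not say whether a number marks a shared batch.

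In the fit without a replicate block, antagomiR-22-3p moved no gene past an adjusted p of 0.05 (edgeR's quasi-likelihood F test, 0 of 16353 tested, 0% called). At an unadjusted p under 0.05 there were 824 genes (5.04%), where 818 are reached if no gene differs. Of these, 650 were higher (3.97% of the genes tested) and 174 lower (1.06%) after the antagomiR. Most differences in both lists were small, with 157 of the higher and 49 of the lower genes past 1.5-fold. The median difference was 1.32-fold among the higher genes and 1.28-fold among the lower ones, and both medians were the same with the 15 and 4 genes that had no count in 1 group set at their bound. Past 2-fold were 63 of the higher and 24 of the lower genes, against 558 of the 16353 tested. The 95th percentile of the fold was 3.66 in the higher list and 6.73 in the lower one. The direction split held with RLE size factors, another scaling of the TMM kind, which gave 694 higher and 150 lower genes. It was absent with plain library totals, which gave 395 higher and 387 lower genes. Library totals also moved the median log2 fold change over all genes from 0.0019 to -0.071, whereas RLE gave 0.0083. Without antagomiR-22-3p replicate 2 the counts were 404 higher and 154 lower genes.

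Other tests and fits disagreed on how many genes to call. limma-voom called none (0%), edgeR's likelihood-ratio test called 20 (0.122% of 16353), and DESeq2 called 58 of the 1135 genes to which its own filter left an adjusted p (5.11%), 57 of them higher (5.02%) and 1 lower (0.0881%). Without that filter DESeq2 called 18 of 16353 genes (0.11%), 17 higher and 1 lower. With the experiment number as a block and only the 4 libraries, the quasi-likelihood test called 377 of 16053 genes, 355 higher and 22 lower. That fit has 1 residual degree of freedom, and the labels do not say that the number marks a shared batch. A block within each arm of all 8 libraries, added after seeing the data, gave 1 call. DESeq2's 58 were all in the highest abundance class, but its filter works by mean count and left few other genes open to a call. Without the filter it also called ENSOARG00000004659 and ENSOARG00000000021, both below that class. Of the 20 from the likelihood-ratio test, 9 were in the lowest class. Of those 20, 8 had no count in either control and reached 0.224 to 0.779 CPM with the antagomiR. With no count in the controls these 8 could only come out higher, so their direction is no result. ENSOARG00000007927, named after its values were seen, had counts only in the treated libraries and so passed the expression filter only through them. The same filter limit holds for ENSOARG00000016201, ENSOARG00000017671 and ENSOARG00000019059, named likewise. They reached at most 0.124, 0.216 and 0.156 CPM in any other library. ENSOARG00000006408 reached 0.527 CPM in control mimic replicate 1 and 0.185 CPM in replicate 2, so it too needed a treated library to pass. These calls give no support for a difference. Leaving out 1 library moved the quasi-likelihood count from 0 to at most 2. ENSOARG00000004659 was then called when control antagomiR replicate 1 was dropped, and ENSOARG00000000171 when either control mimic library was. Dropping antagomiR-22-3p replicate 1 led to calls of ENSOARG00000017568 and ENSOARG00000015488, and dropping replicate 2 of that group to a call of ENSOARG00000017568. ENSOARG00000017568 and ENSOARG00000015488 are named here because the count was small, after their values were seen. ENSOARG00000015488 did not pass the expression filter of the main model. It entered the reduced fit only through its 664 counts in antagomiR-22-3p replicate 2, so its call gives no support for a difference.

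**Figure D1:**
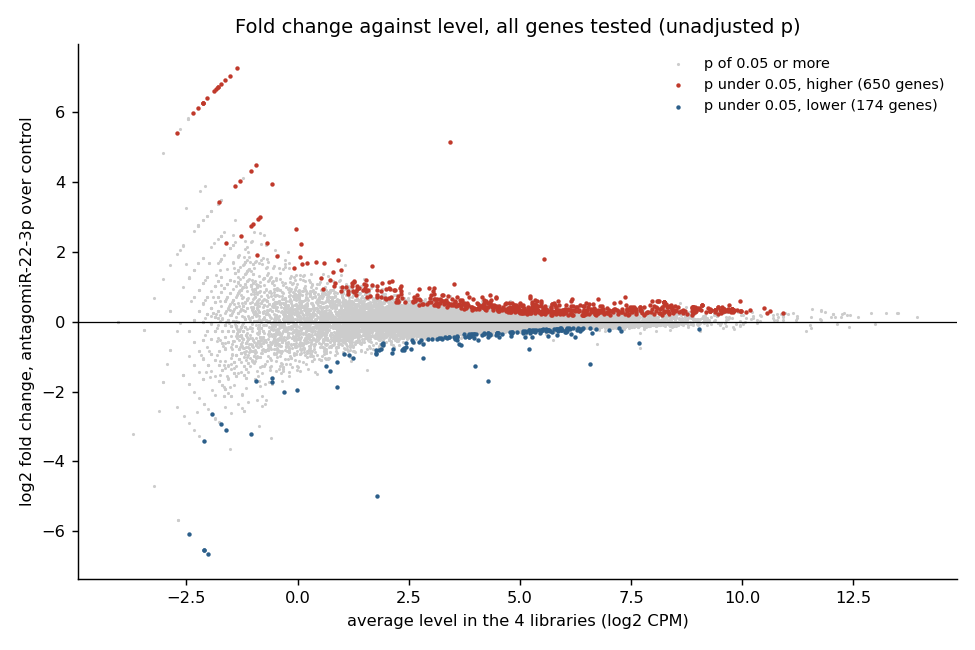
Log2 fold change of antagomiR-22-3p over control antagomiR for each gene tested, against its average level in the 4 libraries (log2 CPM); colours mark genes at an unadjusted p under 0.05. The 650 higher genes (red) outnumber the 174 lower ones (blue), and the widest fold changes lie at the lowest levels, apart from ENSOARG00000000171 at 5.15.

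The model of all 8 libraries, which also gave the spread behind each interval, was precise enough to bound most fold changes. The genes tested were divided by level into 4 classes of 4088 or 4089 genes. In the highest class, with a median of 93.9 CPM, the 95% interval of the fold change lay within 2-fold either way for 99.5% of the genes and within 1.5-fold for 92.8%. For the next class down (median 28.8 CPM) these shares were 99.3% and 87.4%, and for the one below (median 9.99 CPM) 91.5% and 36.4%. In the lowest class (median 1.59 CPM) only 16.9% of the genes had an interval within 2-fold, and the median half-width of the interval was 2.31-fold. Over all classes, 12554 of 16353 genes (76.8%) had an interval within 2-fold and 8858 (54.2%) within 1.5-fold. In a fit of only the 4 libraries compared, 12558 of 16053 genes had an interval within 2-fold. Each interval is that of a single gene, without correction for the number of genes, and 3 genes gave none.

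The abundant genes leaned to higher levels at the tail and not in the middle. In the highest class 291 genes were higher and 46 lower at an unadjusted p under 0.05, a share of 8.24% against 5.04% of all genes tested. Yet the median log2 fold change of that class was -0.013, and 90% of its genes lay between -0.15 and 0.31. The 2 groups did not overlap for 1738 genes of the class (42.5%), and 54.6% of these were lower after the antagomiR. The same held for 35.9% of all genes tested, 18.4% without overlap and higher and 17.6% without overlap and lower. In the lowest class 98 genes were higher and 32 lower at the same unadjusted threshold.

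**Figure D2:**
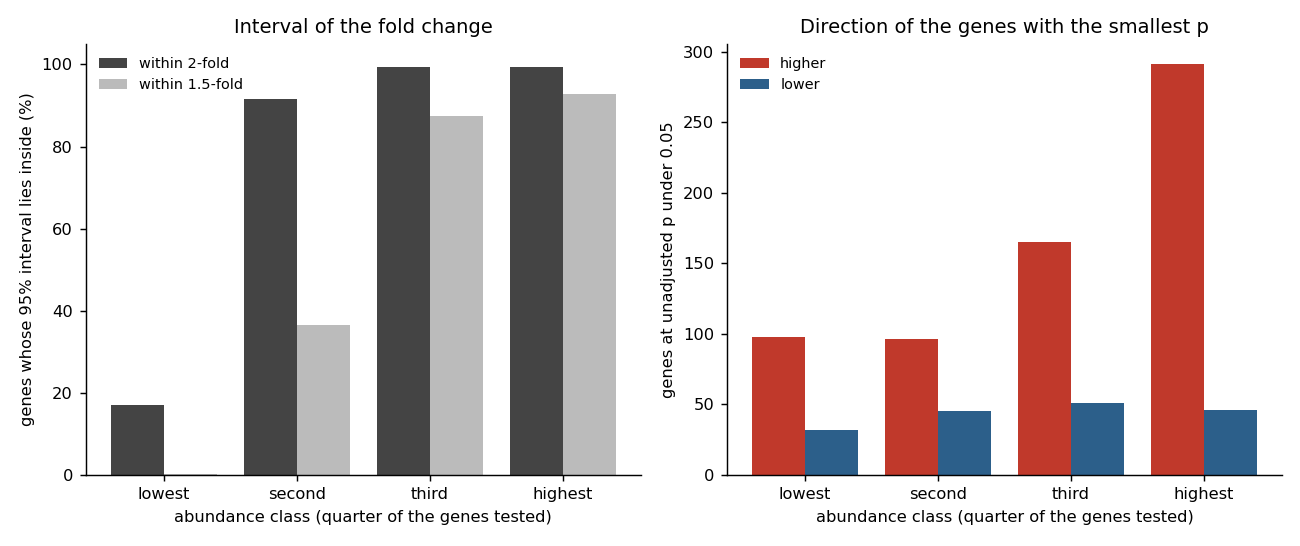
Left, share of genes in each abundance class whose 95% interval of the fold change lies within 2-fold (dark) or 1.5-fold (light) either way; right, number of genes in each class at an unadjusted p under 0.05, higher (red) or lower (blue) after antagomiR-22-3p. The share within 2-fold runs from 16.9% in the lowest class to 99.5% in the highest, and the highest class holds 291 higher and 46 lower genes.

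Among the genes with lower levels, ENSOARG00000004659 stood nearest to a call in the quasi-likelihood fit of all 8 libraries. It was at 24.5 and 34.9 CPM in the 2 control antagomiR libraries and at 8.55 and 9.80 CPM after antagomiR-22-3p. Both treated libraries were below both controls, and the nearest libraries of the 2 groups were 2.50-fold apart. The means were 29.7 ± 7.34 and 9.17 ± 0.88 CPM (SD, n = 2), a log2 fold change of -1.69 with a 95% interval from -2.13 to -1.25 (adjusted p = 0.088 by edgeR). Other tests did call it: the adjusted p was 2.5e-10 in the likelihood-ratio test and 2.7e-10 in DESeq2 without its filter. With its filter DESeq2 left this gene no adjusted p, and limma-voom gave 0.15. In the quasi-likelihood test with only the 4 libraries compared the adjusted p was 0.39, and with the experiment number as a block in them 0.00039. In that test on all 8 libraries it was 0.0012 with library totals and 0.014 without an expression filter. Dropping control antagomiR replicate 1 gave a log2 fold change of -1.92 and dropping replicate 2 of that group -1.42. Dropping antagomiR-22-3p replicate 1 gave -1.6 and dropping its replicate 2 gave -1.79. The 4 libraries with the miR-127 mimic or the control mimic (mimic-type libraries) held between 11.6 and 15.2 CPM of this gene, closer to the treated libraries than to the controls.

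ENSOARG00000004281 had the next largest difference among the lower ones of the genes at 2 log2 CPM or more. Its level was 17.0 and 27.9 CPM in the controls and 9.69 and 9.07 CPM in the treated libraries (log2 fold change -1.26 ± 0.42 SE, adjusted p = 0.97 in edgeR). The groups did not overlap, but the gene varied as much elsewhere: the 2 control mimic libraries held 41.3 and 13.4 CPM. ENSOARG00000016023 differed less and varied less. It stood at 47.3 and 42.3 CPM in the controls and at 34.2 and 31.7 CPM after the antagomiR, or -0.44 ± 0.10 (SE) in log2 terms (adjusted p = 0.97 in edgeR). The mimic-type libraries held between 41.7 and 47.8 CPM of it, so the 2 antagomiR-22-3p libraries were the lowest of all 8. ENSOARG00000003301 was the 1 lower gene called by DESeq2 with its filter (adjusted p = 0.020), whereas DESeq2 without it gave 0.18 and edgeR 0.97. It stood at 249 and 244 CPM in the controls and at 143 and 179 CPM after antagomiR-22-3p. The mimic-type libraries ranged from 120 to 179 CPM, so for this gene the controls were the highest of the 8 libraries.

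The higher genes with the smallest p had small and even differences. ENSOARG00000000021 was at 33.2 and 37.7 CPM in the controls and at 52.6 and 53.7 CPM after antagomiR-22-3p. The groups did not overlap, and the means of 35.5 ± 3.19 and 53.2 ± 0.75 CPM (SD, n = 2) gave a log2 fold change of 0.58 with a 95% interval from 0.37 to 0.80 (adjusted p = 0.65 by edgeR). ENSOARG00000004311 was at 41.3 and 46.0 CPM in the controls and at 60.3 and 62.8 CPM after the antagomiR, which is 0.50 in log2 terms with an interval from 0.31 to 0.69 (adjusted p = 0.65 by edgeR). Its counts were within 2% of those of ENSOARG00000007880 in every library, so the reads cannot be given to 1 of these 2 genes. The likelihood-ratio test called both ENSOARG00000000021 (adjusted p = 0.0063) and ENSOARG00000004311 (adjusted p = 0.0086), and DESeq2 without its filter called them too (adjusted p = 0.021 and 0.022). The mimic-type libraries held between 44.8 and 56.9 CPM of the first and between 93.1 and 106 CPM of the second. For both genes the 2 control antagomiR libraries were the lowest of the 8.

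**Figure D3:**
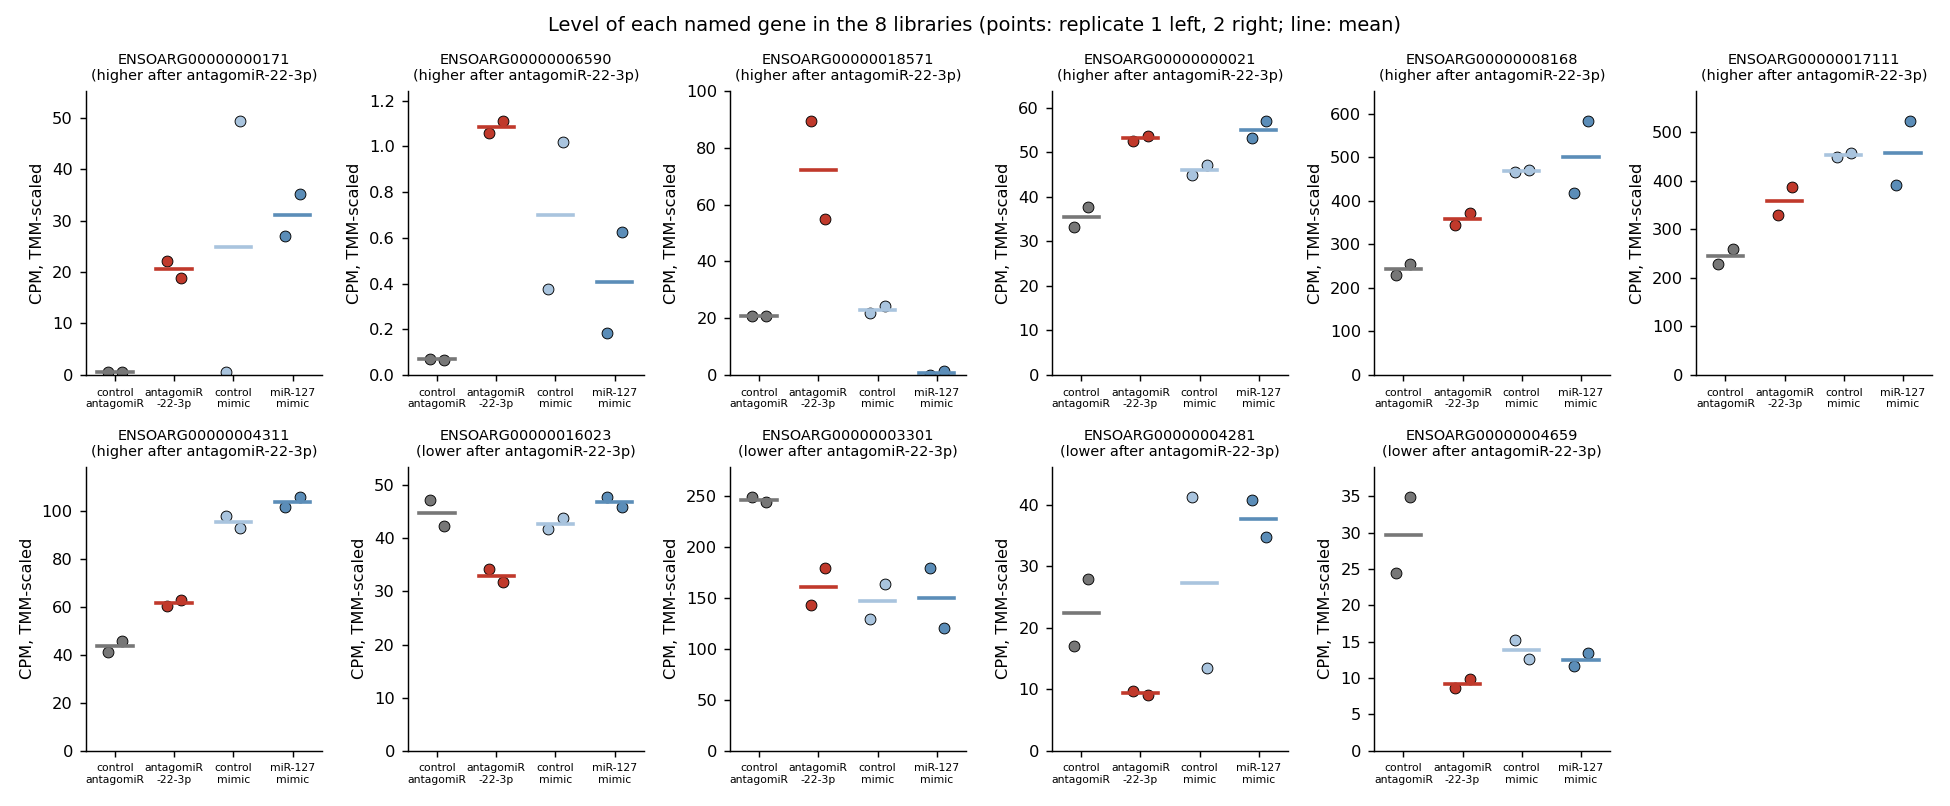
Level of each gene named by rule in the 8 libraries (CPM with TMM scaling, each panel on its own linear axis from 0); points are single libraries, replicate 1 at left and 2 at right, and lines are group means. In each panel the 2 antagomiR-22-3p libraries lie on 1 side of the 2 control antagomiR libraries. The rules required this, except for the genes taken from DESeq2, and 35.9% of all genes tested do the same. For ENSOARG00000000171 the control mimic libraries lie far apart, at 0.60 and 49.3 CPM.

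The largest fold change among the genes at 2 log2 CPM or more was that of ENSOARG00000000171. It had 16 and 18 counts in the controls (0.54 and 0.60 CPM) and 794 and 678 counts after antagomiR-22-3p (22.2 and 18.9 CPM). The log2 fold change was 5.15 with an interval from 2.05 to 8.26, and the nearest libraries were 31.2-fold apart. It was not called in the model of all 8 libraries (adjusted p = 0.97 by edgeR), where the 2 control mimic libraries stood at 0.60 and 49.3 CPM and the miR-127 mimic libraries at 27.0 and 35.2 CPM. With only the 4 antagomiR-type libraries it was the 1 gene called (edgeR, adjusted p = 0.0023). Dropping control mimic replicate 1 or replicate 2 from the larger model also led to a call (9.7e-05 and 0.00016). The log2 fold change itself stayed between 5.03 and 5.27 under all settings run. The gene was thus at about 0.5 to 0.6 CPM in 3 libraries and at 18.9 CPM or more in the other 5, and the low libraries included 1 outside the control antagomiR group.

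ENSOARG00000018571 had the next largest difference, with 20.8 and 20.6 CPM in the controls and 89.3 and 54.8 CPM after antagomiR-22-3p. The treated libraries differed from each other by more than the controls did, and the means were 20.7 ± 0.11 and 72.0 ± 24.4 CPM (SD, n = 2). The log2 fold change was 1.80 with an interval from 0.86 to 2.74 (adjusted p = 0.97 by edgeR), and both treated libraries were the highest of the 8. A difference of at least 1.5-fold between the nearest libraries of the 2 groups was seen for 14 higher genes (0.109% of the 12804 at 2 log2 CPM or more) and 6 lower genes (0.0469%). Of these 20, all but ENSOARG00000018571 and ENSOARG00000004659 were in the 2 lower abundance classes. The fold changes ran from 1.63 to 35.6 among the 14 and from 1.60 to 3.23 among the 6.

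A few genes were present in 1 library of a group and nearly absent in its partner. Counting genes with 5 CPM or more in 1 library and 10-fold less in the other, there was 1 in the control antagomiR group, 2 in the antagomiR-22-3p group, 2 in the control mimic group and 1 in the miR-127 mimic group. These genes were chosen after their values were seen. In the control, ENSOARG00000013697 had 398 counts in replicate 1 and 2 in replicate 2, while the antagomiR-22-3p libraries had 8 and 7, so its log2 fold change of -4.99 came from 1 control library. After antagomiR-22-3p, ENSOARG00000003439 had 646 counts in replicate 1 and 0 in replicate 2, and ENSOARG00000015488 had 10 and 664. The controls had 402 and 324 counts of ENSOARG00000003439, and control mimic replicate 1 also had 0. ENSOARG00000017568, which was called only when 1 antagomiR-22-3p library was left out, stood at 103 CPM in replicate 1 and 13.0 CPM in replicate 2, on either side of the controls at 45.7 and 38.5 CPM.

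Genes whose counts could not be told apart made up a visible share of the higher list. Of the genes totalling 1000 counts or more, 78 fell into 30 sets in which the counts of linked genes were within 2% of each other in each of the 8 libraries. Of the 78, 52 in 17 sets were higher at an unadjusted p under 0.05, or 66.7% against 3.97% of all genes tested. Members of a set repeat nearly the same counts and are not separate measurements. By sets the share was 17 of 30 (56.7%). The median log2 fold change of the 78 genes was 0.34, against 0.0019 for all genes tested, and 72 of them were above 0. Most were abundant, with 62 of the 78 in the highest class, where 291 of all 4088 genes were higher at that threshold. With each set counted once the 650 higher genes became 615. In a model refitted with 1 gene of each set, chosen after seeing the data, 622 genes were higher and 171 lower, and none was called. Whether such genes share reads, sequence or position was not tested.

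**Figure D4:**
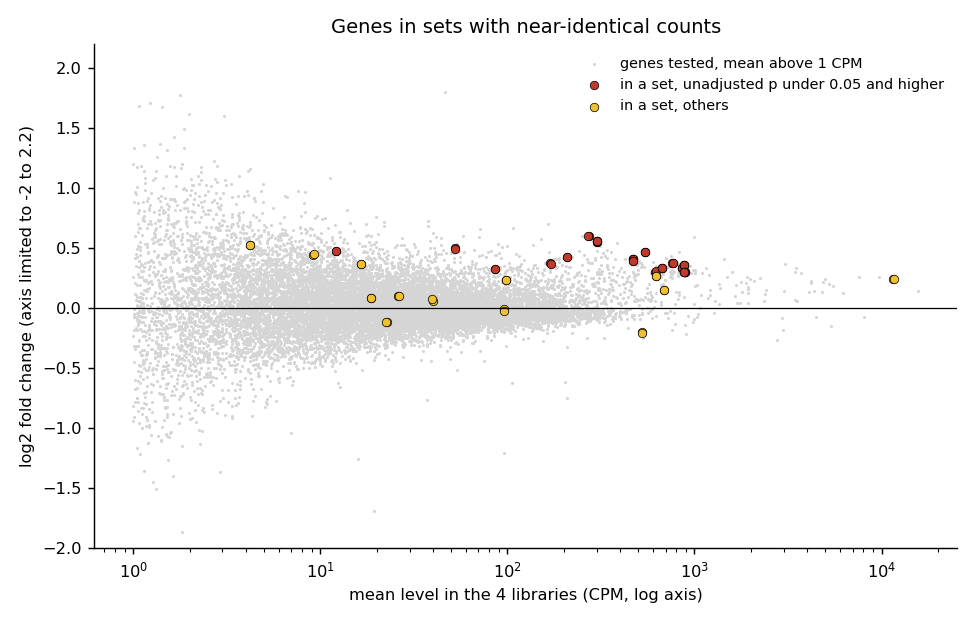
Log2 fold change against mean level (CPM, log axis) for genes tested with a mean above 1 CPM (grey, with the few beyond the axis limits not drawn) and for the 78 genes in sets with near-identical counts (red where higher at an unadjusted p under 0.05, yellow otherwise). The red points stand for 52 genes, members of a set lie on top of each other, and most are above 100 CPM.

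DESeq2's higher genes came partly from these sets, since 21 of its 58 calls belonged to 8 of them. Its smallest adjusted p, to 2 significant digits, was shared by 8 genes, of which 6 were in 2 such sets and ENSOARG00000000033 and ENSOARG00000019857, named after their values were seen, in none. ENSOARG00000017111 and ENSOARG00000008168 are the 2 of the 8 that come first in the order of the table. ENSOARG00000017111 was at 229 and 260 CPM in the controls and at 330 and 387 CPM after antagomiR-22-3p, or 0.55 ± 0.14 (SE) in log2 terms (adjusted p = 0.0064 in DESeq2 but 0.97 in edgeR). ENSOARG00000008168 was at 230 and 256 CPM and at 345 and 372 CPM, or 0.56 ± 0.14 (adjusted p = 0.0064 in DESeq2 but 0.97 in edgeR). The groups did not overlap for either gene, and the first had near-identical counts to ENSOARG00000019826 and the second to 3 other genes. The mimic-type libraries held more of both, from 391 to 523 CPM of ENSOARG00000017111 and from 419 to 583 CPM of ENSOARG00000008168. Over the 58 calls the median difference was 1.34-fold, and none was past 2-fold.

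One gene was expressed on 1 side only, taking both libraries of a group at 1 CPM or more and both of the other at 0.1 CPM or less. ENSOARG00000006590 had 2 counts in each control and 38 and 40 after antagomiR-22-3p (1.06 and 1.11 CPM). The mimic-type libraries had between 6 and 33 counts of it, so that the controls were again the lowest of the 8. Its log2 fold change was 3.93 with an interval from 1.60 to 6.27 (adjusted p = 0.97 by edgeR, 0.033 by the likelihood-ratio test). No gene met the rule in the other direction. With 0.5 CPM in place of 1 CPM, 3 genes met it, all higher after the antagomiR. Counting detection alone, 100 genes had counts in both antagomiR-22-3p libraries and none in either control, and 63 had the reverse, with at most 28 and 20 counts in a library. The group with more such genes was also the deeper one, and the part of depth in this was not tested.

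The most abundant messages differed by little. ENSOARG00000016755, the most abundant gene, stood at 14145 and 15685 CPM in the controls and at 16484 and 16459 CPM with the antagomiR, which is 0.14 in log2 terms with an interval from -0.13 to 0.42 (adjusted p = 0.99 by edgeR). ENSOARG00000008998 and ENSOARG00000008608, whose counts were within 2% of each other, had log2 fold changes of 0.24 each, with intervals from -0.08 to 0.56. ENSOARG00000008678 had a log2 fold change of 0.25 with an interval from -0.07 to 0.57. For these 4 genes the groups did not overlap and the treated libraries were higher, but all the intervals included 0. With 2 libraries a side an exact permutation test of 1 gene cannot give a two-sided p below 0.333.

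The difference between the antagomiR effect and the miR-127 mimic effect was called for 1 gene of 16353 (0.00612%), ENSOARG00000018571. Its log2 fold change was higher by 6.96 ± 0.75 (SE) in the antagomiR comparison (adjusted p = 0.043 in edgeR), a call that ended when any of 5 single libraries was dropped. The miR-127 mimic libraries had 0 and 36 counts of it and the control mimic libraries 578 and 782. The difference could not be told from 0 after correction for any other gene named above that was tested. It was -1.54 (SE 0.28, adjusted p = 0.71 in edgeR) for ENSOARG00000004659 and 4.85 (SE 1.73, adjusted p = 0.80 in edgeR) for ENSOARG00000000171. ENSOARG00000015488 was not tested.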

How the data were processed

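Whole-number counts for each gene, neither normalized nor pooled, were deposited as 8 columns of a single table, per the file headers. Tools named without a role, per the submitters' processing notes, include featureCounts 2.0.2, Subread, Trim Galore 0.6.5 and RSEM 1.3.3, as well as FastQC 0.11.8 and edgeR 3.34.1. Genome build, annotation and strand setting: not given in the sources used here. In the 4 libraries 13.8% to 15.6% of counts from 1 to 100 were odd, so counts are not single independent reads.

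Counts were fitted in R 4.3.3 with edgeR 4.0.16. The default expression filter (minimum count 10, minimum total 15) kept 16353 of 20921 genes. TMM factors scaled the libraries, and the quasi-likelihood F test compared group means in 1 model of all 8 libraries (4 residual and 6.29 prior degrees of freedom), with 2-sided p-values adjusted by Benjamini-Hochberg over all genes tested. The SE is the log2 fold change over the square root of F, and a 95% interval uses the t quantile at the total degrees of freedom. The fit was tested on simulated data. DESeq2 1.42.0 and limma 3.58.1 (voom) were alternatives, beside other scalings, filters, a replicate block, halved counts and leaving out each library.

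Named genes were, in each direction, the 2 with the smallest p and the 2 with the largest fold change at an unadjusted p under 0.05 (both at 2 log2 CPM or more on average, without overlap), the 2 with the smallest DESeq2 adjusted p, the 2 most abundant expressed on 1 side only, and the 4 most abundant genes. Tests and rules were chosen with earlier results of these data known. Gene lists by symbol and cell type markers were planned but not used, since no identifier matched a symbol.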

Additional observations from a re-analysis of the deposited data

Results flagged for a closer look

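ENSOARG00000018571 was picked out because the antagomiR-22-3p and miR-127 mimic effects were unlike when tested against each other, with a difference of 6.96 ± 0.75 (SE) on the log2 scale (adjusted p = 0.043 in edgeR). It was higher in both antagomiR-22-3p libraries than in both controls, and lower in both miR-127 mimic libraries than in both control mimic libraries. Dropping replicate 1 or 2 of the control antagomiR gave an adjusted p of 0.22 or 0.26, dropping antagomiR-22-3p replicate 1 gave 0.11, and dropping replicate 1 or 2 of the control mimic gave 0.22 or 0.54. With these libraries dropped the difference was between 6.56 and 7.03. Dropping antagomiR-22-3p replicate 2 gave a difference of 7.28 (adjusted p = 0.02 in edgeR). The size of the difference moved most with the miR-127 mimic libraries, which had 0 and 36 counts of the gene: it was 5.82 (adjusted p = 0.0019 in edgeR) without replicate 1 and 14.3 (adjusted p = 0.00022 in edgeR) without replicate 2, where the remaining library had 0 counts, so that 14.3 is no measure of size. DESeq2 gave a difference of 6.83 (adjusted p = 0.42) and limma-voom 9.30 (adjusted p = 0.75). The quasi-likelihood test with a robust prior spread gave 6.96 and did not call it (adjusted p = 0.72). The likelihood-ratio test gave 6.84 (adjusted p = 1e-04), and the quasi-likelihood test with library totals gave 6.92 (adjusted p = 8.8e-05). Groups of 2 libraries are too small to test a single library for standing apart.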

How the results depend on the processing

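Of the genes named by rule, none changed direction under any setting run. ENSOARG00000017568 is not among them. It was above both controls in antagomiR-22-3p replicate 1 (103 CPM) and below both in replicate 2 (13.0 CPM), so its direction depended on the library kept. The quasi-likelihood count of 0 became 1 with library totals, without an expression filter or at an adjusted p of 0.10. The gene called was then ENSOARG00000004659. With only the 4 libraries compared, ENSOARG00000000171 was called instead, so the count was also 1. It was 0 to 2 with any single library dropped, a fit in which the lone library of a group is assumed to vary like the others. DESeq2 called 58 genes, or 18 without its filter, and the likelihood-ratio test called 20. The numbers at an unadjusted p under 0.05 were 395 higher and 387 lower with library totals, and 404 to 918 higher and 133 to 232 lower when 1 library was left out. Genes on 1 side only numbered 3 at 0.5 CPM and 0 against exactly 0 counts. The difference of effects was called for 15 genes by DESeq2 and for 0 to 110 genes when 1 library was left out, 110 without miR-127 mimic replicate 2. Other fits of all 8 libraries called this difference for 37 genes (likelihood-ratio test), 36 (block within each arm), 2 (library totals) and 0 (limma-voom, or a robust prior spread). The number of genes with an interval within 2-fold stayed between 11382 and 13031. The cause of these shifts was not tested.

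With the experiment number as a replicate block and only the 4 libraries, 377 genes were called, 355 higher and 22 lower, and 1376 genes were higher and 571 lower at an unadjusted p under 0.05. This fit has 1 residual degree of freedom beside 9.23 prior ones. A block within each arm in all 8 libraries, added after seeing the data, gave 1 call, 1102 higher and 320 lower. The labels do not say that an experiment number marks a shared batch or animal, so the samples share only a number. As a hint from the data, the replicate differences of the 2 groups correlated at r = 0.40 over 12804 genes, which are not independent replicates.

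Intervals were widest for the least abundant genes, with 16.9% of the lowest class within 2-fold, and the part of depth in this was not tested.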
